A study of Mus musculus with 4 samples.

Results

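The JAK and STAT genes encode the kinases and transcription factors of cytokine signalling, and 9 of them are described here in MC38 cells, a mouse colon carcinoma cell line. They are the kinase genes Jak1, Jak2 and Tyk2 and the transcription factor genes Stat2, Stat3, Stat4, Stat5a, Stat5b and Stat6. They were chosen by name, with earlier results of these data known. Their rows of the count table are those whose NCBI gene identifier belongs to these symbols, 9 of 27179 genes in the table. The RNA-seq addressed how signalling in these cells changes when IFN-γ is given under hypoxic conditions. The 4 cultures were sequenced, each as 1 library with no replicate. The control under normoxia (20% oxygen) and the control under hypoxia (1.5% oxygen) received no cytokine. The other cultures were labelled as treated with IFN-γ under normoxia and under hypoxia. The study's methods give 5 ng/mL and 24 h for its IFN-γ treatments, without restating either for the sequenced cultures. All 4 cultures carry the genotype label WT and held tumour cells alone, so every value comes from a single cell line.

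A cytokine brings its receptor chains together, and the JAK kinases bound to those chains then phosphorylate each other and the receptor tails. STAT proteins dock on the tails, are phosphorylated in turn, pair up and move to the nucleus, where they bind DNA and switch on target genes. The IFN-γ receptor carries Jak1 and Jak2, the type I interferon receptor carries Jak1 and Tyk2, and several STAT genes are themselves known targets of interferon.

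The libraries held between 34302971 and 34537939 counts on genes, so depth was nearly equal. At this depth 3 counts, taken as the floor of detection, corresponded to between 0.0869 and 0.0875 in counts-per-million (CPM) units. All 10 genes of a list of known IFN-γ targets rose with IFN-γ, with a median log2 change of 3.23, and 7 of them also rose with hypoxia, with a median of 0.25. All 10 genes of a list of known hypoxia targets rose with hypoxia, with a median log2 change of 1.24, and none was called with IFN-γ. Both lists were chosen with earlier results of these data known. Of 8 epithelial markers, Epcam, Cdh1, Krt18 and Cdx2 stayed at or under 3 counts in every library. Krt8 (48 to 90 counts), Krt20 (12 to 22) and Vil1 (7 to 17) lay over 3 counts in every library. Krt19 reached 18 counts in the hypoxic control only. The summed counts of the 8 ran from 85 to 113. The mesenchymal genes Vim, Fn1 and Cdh2 summed to between 89322 and 100039 counts, and Fn1 rose with hypoxia by 0.31 on the log2 scale. Of 10 leukocyte markers, 6 stayed at or under 3 counts in every library and the sums ran from 93 to 128. The endothelial markers Pecam1 and Cdh5 summed to between 26 and 50 counts. No epithelial, leukocyte or endothelial marker that could be tested was called with either stimulus. In bulk RNA, fewer cells of a type and less RNA per cell cannot be told apart.

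IFN-γ raised 3 of the 9 genes, Stat2, Stat3 and Jak2, and hypoxia raised 4, Stat2, Stat6, Jak1 and Jak2. No member was called lowered with either stimulus. A gene is called here when its change has a Benjamini-Hochberg adjusted p under 0.05 in edgeR's quasi-likelihood test over all 4 libraries. The fit held IFN-γ and oxygen as additive terms and covered 13580 genes, all 9 members among them. Stat4 entered the test only through its counts in the IFN-γ libraries. Over all tested genes, IFN-γ raised 4.76% and lowered 1.1%, and hypoxia raised 8.21% and lowered 6.83%. Over the other 8 members the median log2 change was 0.0080 with IFN-γ, against -0.01 over all genes, and 0.26 with hypoxia, against 0.0047 over all genes. Without adjustment, edgeR's p was under 0.05 for 3 of these 8 members raised with IFN-γ, against 8.13% of all genes, and for 6 raised with hypoxia, against 14.1%. None of the 8 was lowered by that measure, against 5.84% of all genes with IFN-γ and 12.4% with hypoxia. Because the members were chosen with earlier results of these data known, these shares are a comparison and no test of the set.

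No condition had a replicate, so the spread in this fit comes from departures from additivity, with 1 residual degree of freedom per gene pooled across genes. That spread mixes differences between cultures with any interaction of both stimuli, and its p-values are no substitute for replicates. The standard error of a gene need not follow its own departure. With IFN-γ it was 0.065 for Stat3, which departed by 0.36 on the log2 scale, and 0.0721 for Stat5b, which departed by 0.07. An exact permutation test of 2 libraries against 2 cannot go below a two-sided p of 0.333. Changes between single libraries are given as log2 ratios with 95% intervals that cover counting error only.

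**Figure D1:**
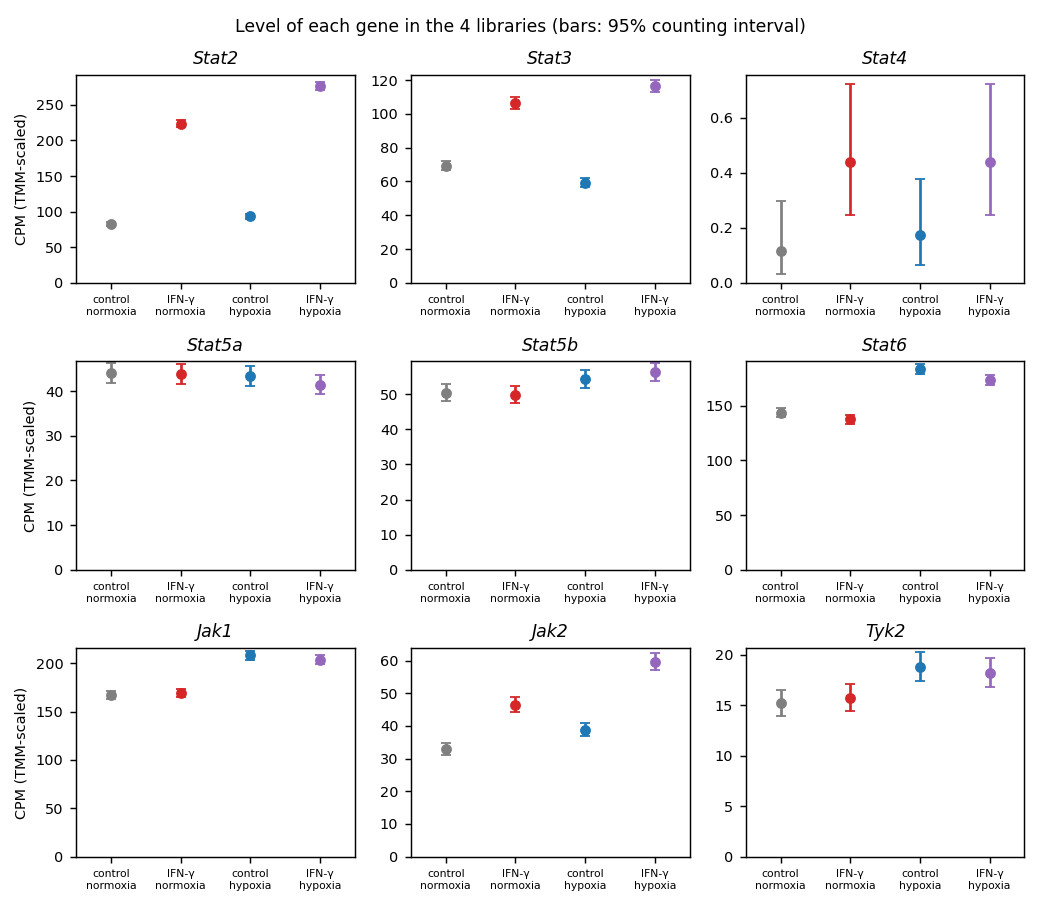
Level of each of the 9 genes in the 4 libraries, in CPM scaled by TMM, with 1 point per library and bars for the 95% counting interval. Both IFN-γ libraries lie above both control libraries for Stat2, Stat3 and Jak2. Stat4, at 4 to 15 counts, has that order too but entered the test only through the IFN-γ libraries. Both hypoxic libraries lie above both normoxic libraries for Stat6, Jak1, Tyk2 and Stat5b.

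Jak2 and Stat2 were called with both stimuli, Stat3 with IFN-γ, and Stat6 and Jak1 with hypoxia, and the bases before the RefSeq start of these 5 genes are shown because these are the members that moved. Each sequence begins 250 bases before that start and stops where the gene span annotated in RefSeq begins. The sequences are written 5′ to 3′ on the gene's own strand, in build GRCm38.p6.
Jak1, chr4:101265283-101265473, minus strand: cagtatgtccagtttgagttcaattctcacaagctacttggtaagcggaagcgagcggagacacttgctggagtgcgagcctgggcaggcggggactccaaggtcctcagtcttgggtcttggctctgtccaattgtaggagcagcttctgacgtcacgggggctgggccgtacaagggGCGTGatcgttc
Jak2, chr19:29251553-29251802, plus strand: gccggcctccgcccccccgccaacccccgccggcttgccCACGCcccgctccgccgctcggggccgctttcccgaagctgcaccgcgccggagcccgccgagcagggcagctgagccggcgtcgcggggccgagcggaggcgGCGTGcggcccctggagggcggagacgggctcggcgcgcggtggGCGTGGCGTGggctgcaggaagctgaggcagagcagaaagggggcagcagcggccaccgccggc
Stat2, chr10:128270248-128270497, plus strand: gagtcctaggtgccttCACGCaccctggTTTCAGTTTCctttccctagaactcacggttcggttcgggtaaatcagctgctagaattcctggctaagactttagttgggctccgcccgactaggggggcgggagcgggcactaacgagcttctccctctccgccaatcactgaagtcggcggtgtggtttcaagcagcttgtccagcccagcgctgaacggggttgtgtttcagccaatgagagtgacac
Stat3, chr11:100939595-100939790, minus strand: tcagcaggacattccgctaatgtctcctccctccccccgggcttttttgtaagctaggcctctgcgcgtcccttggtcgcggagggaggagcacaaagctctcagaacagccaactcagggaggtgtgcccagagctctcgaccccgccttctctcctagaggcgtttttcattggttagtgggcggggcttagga
Stat6, chr10:127642736-127642954, plus strand: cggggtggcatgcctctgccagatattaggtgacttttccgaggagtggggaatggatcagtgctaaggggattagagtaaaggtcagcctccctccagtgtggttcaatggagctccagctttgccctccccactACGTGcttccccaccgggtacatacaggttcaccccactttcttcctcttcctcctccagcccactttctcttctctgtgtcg
Capitals mark every match, on either strand, to 4 short motifs searched in the full 250 bases. They were TTCNNNGAA, the GAS element that STAT pairs bind, GAAANNGAAA, a form of the ISRE element bound by the complex of STAT2 and IRF9, and ACGTG and GCGTG, forms of the core that hypoxia-inducible factors bind.

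Stat2 held an ISRE match on the minus strand, from 222 to 213 bases before the start, and a GCGTG match on the minus strand from 234 to 230 bases before it. Jak2 held 4 GCGTG matches, of which the nearest to the start lay 59 to 55 bases before it and directly adjoined another. Stat6 held ACGTG from 114 to 110 bases before the start and Jak1 held GCGTG from 71 to 67 bases before it. Members that were not called held matches too, namely Tyk2 with GCGTG on the minus strand from 132 to 128 bases before its start, Stat5b with GCGTG from 220 to 216 bases before a second start, and Stat4 with GAAANNGAAA from 97 to 88 bases before a second start. Stat3 held no match, and no window of any of the 9 members held TTCNNNGAA. No match overlapped a match to another motif. Over 32851 RefSeq mouse promoters of the same length, 7.02% held TTCNNNGAA, 2.98% held GAAANNGAAA, 16.6% held ACGTG, 28.2% held GCGTG and 38.6% held at least 1 of the last pair. The matches are letters in these windows and do not show binding.

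Of the kinases, Jak2 rose with both stimuli, by 1.47-fold with IFN-γ and 1.23-fold with hypoxia. Jak2 (gene identifier 16452, chr19:29251803-29313095, plus strand) encodes the kinase bound to the second chain of the IFN-γ receptor, and it also serves the receptors for erythropoietin and growth hormone. Its level was 32.9 CPM in the normoxic control (1138 counts), 46.4 CPM with IFN-γ under normoxia (1591 counts), 38.8 CPM in the hypoxic control (1343 counts) and 59.6 CPM with IFN-γ under hypoxia (2041 counts). Both IFN-γ libraries lay above both controls, and the library with both stimuli was the highest. The groups by oxygen overlapped, since the normoxic IFN-γ library lay above the hypoxic control. In the fit, the log2 change with IFN-γ was 0.56 ± 0.0751 (SE, adjusted p = 6.18e-12, edgeR), and that with hypoxia was 0.30 ± 0.075 (adjusted p = 0.000921).

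Between single libraries, IFN-γ changed Jak2 by 0.50 on the log2 scale under normoxia (0.39 to 0.61) and by 0.62 under hypoxia (0.52 to 0.72). Hypoxia changed it by 0.24 without IFN-γ (0.13 to 0.36) and by 0.36 with IFN-γ (0.27 to 0.46). Each interval excluded 0, so Jak2 went the same way in every pair of libraries that differ in 1 stimulus. The IFN-γ call was lost, at a log2 change of 0.56, when oxygen was left out of the fit (adjusted p = 0.232, edgeR, over 6 alternative fits with a range from 2.42e-06 to that value). The hypoxia call was lost when IFN-γ was left out (adjusted p = 0.587, edgeR) and in DESeq2's Wald test (adjusted p = 0.107), with a range from 0.00468 to 0.587 over 6 alternative fits.

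Jak1 rose with hypoxia by 1.22-fold and was not called with IFN-γ. Jak1 (16451, chr4:101151974-101265282, minus strand) encodes the kinase shared by interferon receptors and the receptors of the interleukin-6 family. Its level was 167 CPM in the normoxic control (5799 counts), 170 CPM with IFN-γ under normoxia (5814 counts), 208 CPM in the hypoxic control (7201 counts) and 204 CPM with IFN-γ under hypoxia (6983 counts). Both hypoxic libraries lay above both normoxic ones, and the 2 libraries within each oxygen level lay close together. In the fit, Jak1 changed by 0.29 ± 0.0567 on the log2 scale with hypoxia (SE, adjusted p = 1.01e-05, edgeR) and -0.01 ± 0.0567 with IFN-γ (adjusted p = 0.99). The 95% interval of the fitted IFN-γ change ran from -0.12 to 0.10 on the log2 scale. The hypoxia change was 0.31 without IFN-γ (0.26 to 0.37) and 0.27 with it (0.22 to 0.32).

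Tyk2, the partner of Jak1 on the type I interferon receptor, had the lowest level of the 3 kinases and missed the threshold with hypoxia. Tyk2 (54721, chr9:21104068-21131393, minus strand) stood at 15.2 CPM in the normoxic control (526 counts), 15.7 CPM with IFN-γ under normoxia (538 counts), 18.8 CPM in the hypoxic control (651 counts) and 18.2 CPM with IFN-γ under hypoxia (625 counts). The hypoxic libraries lay above the normoxic ones, in the same order as for Jak1. Tyk2 changed by 0.26 ± 0.0991 on the log2 scale with hypoxia in the fit (SE, unadjusted p = 0.00776, adjusted p = 0.051, edgeR) and -0.0011 ± 0.0991 with IFN-γ (adjusted p = 0.998). None of 6 alternative fits called Tyk2 with hypoxia. The adjusted p there ran from 0.0636 in edgeR to 0.504 in DESeq2's Wald test. The single-library changes with hypoxia were 0.31 (0.14 to 0.48) without IFN-γ and 0.22 (0.05 to 0.39) with it. An annotated antisense transcript on the opposite strand overlaps 554 exonic bases of Tyk2, and the strand setting of the counting is not given in the sources used here.

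Of the transcription factors called with IFN-γ, Stat2 rose more than Stat3, by 2.84-fold, and it also rose by 1.19-fold with hypoxia. Stat2 (20847, chr10:128270498-128292853, plus strand) encodes the STAT that joins IRF9 in the complex that binds interferon-stimulated response elements. Its level was 82.3 CPM in the normoxic control (2852 counts), 224 CPM with IFN-γ under normoxia (7676 counts), 93.2 CPM in the hypoxic control (3224 counts) and 277 CPM with IFN-γ under hypoxia (9489 counts). The IFN-γ libraries lay far above the controls, and within each treatment the hypoxic library was the higher. The fitted log2 change with IFN-γ was 1.51 ± 0.0591 (SE, adjusted p = 2.26e-137, edgeR) and that with hypoxia was 0.25 ± 0.0582 (adjusted p = 0.000448). The IFN-γ call of Stat2 was kept in all 6 alternative fits. Its adjusted p there ran from 7.26e-80 in DESeq2's Wald test to 0.0015 in edgeR without the oxygen term. The IFN-γ change between single libraries was 1.44 under normoxia (1.38 to 1.51) and 1.57 under hypoxia (1.51 to 1.63). The hypoxia change was 0.18 without IFN-γ (0.11 to 0.25) and 0.31 with it (0.26 to 0.35).

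Stat3 rose 1.74-fold with IFN-γ and was not called with hypoxia, where its changes without and with IFN-γ had opposite signs. Stat3 (20848, chr11:100886806-100939594, minus strand) encodes the factor activated by interleukin-6 and related cytokines. Its level was 69.3 CPM in the normoxic control (2400 counts), 106 CPM with IFN-γ under normoxia (3644 counts), 59.2 CPM in the hypoxic control (2048 counts) and 116 CPM with IFN-γ under hypoxia (3990 counts). Both IFN-γ libraries lay above both controls. The hypoxic control was the lowest library and the hypoxic IFN-γ library the highest, so the normoxic pair lay between them. The fitted log2 change was 0.79 ± 0.065 with IFN-γ (SE, adjusted p = 3.27e-32, edgeR) and -0.04 ± 0.0647 with hypoxia (adjusted p = 0.761). The IFN-γ call of Stat3 was kept in all 6 alternative fits. Its adjusted p there ran from 4.21e-12 in DESeq2's Wald test to 0.0109 in edgeR without the oxygen term.

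Between single libraries, the IFN-γ change of Stat3 was 0.62 under normoxia (0.54 to 0.69), or 1.53-fold, and 0.97 under hypoxia (0.90 to 1.05), or 1.97-fold. Its hypoxia change was -0.23 without IFN-γ (-0.31 to -0.14) and 0.13 with IFN-γ (0.07 to 0.20). These 4 changes share the same 4 libraries, so the wider IFN-γ change under hypoxia and the opposite signs of the hypoxia changes are a single departure from additivity. Its size was 0.36 on the log2 scale, with a counting interval of 0.25 to 0.47.

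The departure from additivity is the IFN-γ change under hypoxia minus that under normoxia. Its counting interval excluded 0 for 2 of the 8 members with at least 100 counts in every library. These were Stat3 and Stat2, and for Stat2 the departure was 0.13 (0.04 to 0.21). For the other 6 members the departure ran from -0.09 for Tyk2 (-0.33 to 0.14) to 0.12 for Jak2 (-0.03 to 0.27). Among all 10443 genes with such counts, the interval excluded 0 for 34.5%, and the central 95% of genes ran from -0.36 to 0.40. All 8 members lay inside that range, Stat3 near its upper end. Opposite hypoxia changes whose intervals both exclude 0, as in Stat3, were found in 410 of the 10443 genes, or 3.93%. No degree of freedom is left to test this difference, and it was not tested.

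**Figure D2:**
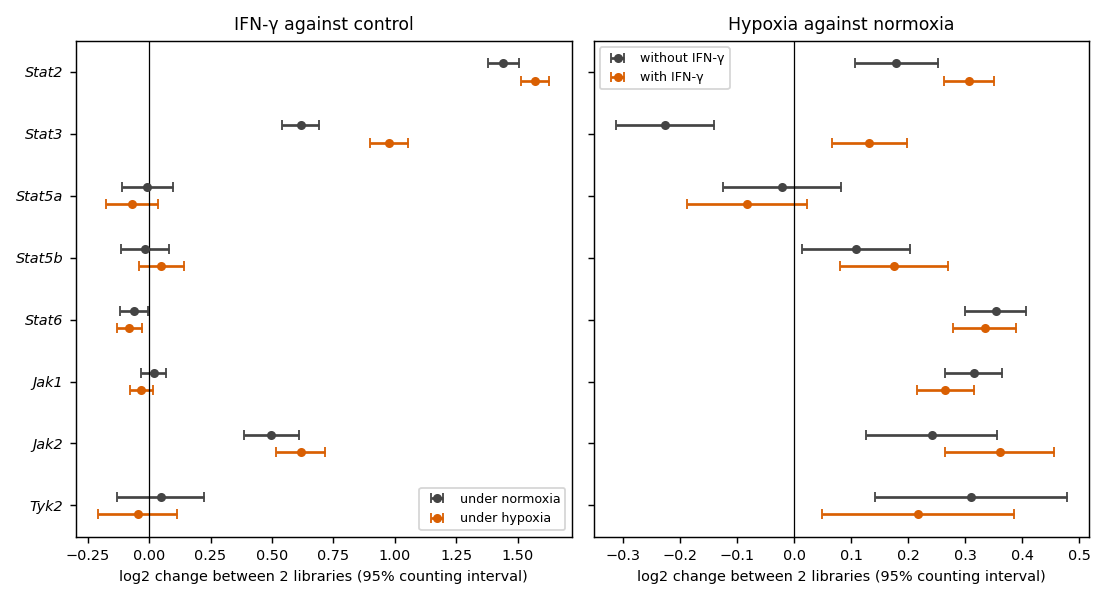
Log2 change between 2 single libraries for 8 of the 9 genes, with IFN-γ against control on the left and hypoxia against normoxia on the right. Points are the changes within each oxygen level or treatment and bars are 95% counting intervals. Stat3 is the gene whose hypoxia changes lie on opposite sides of 0, at -0.23 and 0.13. Stat4, with at most 15 counts, is left out.

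Stat6, the factor of interleukin-4 and interleukin-13 signalling, rose with hypoxia by 1.27-fold. Stat6 (20852, chr10:127642955-127660987, plus strand) stood at 144 CPM in the normoxic control (4972 counts), 138 CPM with IFN-γ under normoxia (4717 counts), 183 CPM in the hypoxic control (6342 counts) and 173 CPM with IFN-γ under hypoxia (5943 counts). Both hypoxic libraries lay above both normoxic ones, and within each oxygen level the IFN-γ library was slightly the lower. The fitted log2 change was 0.34 ± 0.058 with hypoxia (SE, adjusted p = 1.52e-07, edgeR) and -0.07 ± 0.058 with IFN-γ (adjusted p = 0.709). The hypoxia change was 0.35 without IFN-γ (0.30 to 0.41) and 0.33 with it (0.28 to 0.39). The IFN-γ change was -0.06 under normoxia and -0.08 under hypoxia, with counting intervals that excluded 0, which is not a call.

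The hypoxia calls of all 4 members were lost when IFN-γ was left out of the fit, which then set 2 libraries against 2. The changes themselves stayed nearly the same in that fit, at 0.27 for Stat2, 0.34 for Stat6, 0.29 for Jak1 and 0.31 for Jak2 on the log2 scale. For Stat2 the adjusted p was then 0.874 in edgeR, with a range from 0.00292 to that value over 6 alternative fits. For Stat6 it was 0.077, with a range from 5.12e-05, and for Jak1 it was 0.0805, with a range from 0.000323.

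Stat5a and Stat5b, neighbouring genes whose products mediate signalling by prolactin, growth hormone and interleukin-2, were not called with either stimulus. Stat5a (20850, chr11:100859351-100885169, plus strand) and Stat5b (20851, chr11:100780731-100859004, minus strand) lie beside Stat3 and are near-identical over parts of their coding sequence. Their longest identical run is 324 bases, positions 571 to 894 of the coding sequence in both. A stretch of 100 bases from it, as long as 1 read, is shown because such a read on its own cannot be assigned to either gene.
Stat5a and Stat5b, coding positions 683 to 782: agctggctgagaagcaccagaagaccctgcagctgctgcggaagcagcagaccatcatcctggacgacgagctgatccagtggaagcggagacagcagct
Of all 31-base words in the Stat5a transcripts, 21.3% also occur in another annotated gene, mainly Stat5b, and for Stat5b the share is 15.3%. Of words as long as 1 read, 100 bases, 6.31% are shared for Stat5a and 4.87% for Stat5b. How the counting treated reads that match both genes is not given in the sources used here, so the split of such reads between them is uncertain.

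Stat5a stood at 44.1 CPM in the normoxic control, 43.9 CPM with IFN-γ under normoxia, 43.4 CPM in the hypoxic control and 41.4 CPM with IFN-γ under hypoxia (1419 to 1526 counts). Stat5b stood at 50.4, 49.8, 54.3 and 56.3 CPM in the same order (1709 to 1928 counts). The Stat5a libraries overlapped within their counting intervals. Both hypoxic libraries of Stat5b lay above its normoxic ones, but the counting interval of its hypoxic control overlapped those of both normoxic libraries. The fitted log2 change of Stat5b with hypoxia was 0.14 ± 0.0721 (SE, unadjusted p = 0.049, adjusted p = 0.186, edgeR) and that of Stat5a was -0.05 ± 0.075 (adjusted p = 0.722). With IFN-γ the fitted changes were 0.02 for Stat5b (-0.12 to 0.16) and -0.04 for Stat5a (-0.18 to 0.11). With the counts of both genes summed, the change was -0.0066 with IFN-γ (adjusted p = 0.992, edgeR) and 0.055 with hypoxia (adjusted p = 0.64).

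Stat4, the factor of interleukin-12 signalling in lymphocytes, was close to the floor. Stat4 (20849, chr1:51987106-52107189, plus strand) had 4 counts in the normoxic control, 15 with IFN-γ under normoxia, 6 in the hypoxic control and 15 with IFN-γ under hypoxia. These counts correspond to 0.115, 0.437, 0.174 and 0.438 CPM. Both IFN-γ libraries held more counts than both controls. No p is given for Stat4 with IFN-γ, because it passed the filter only through the IFN-γ libraries. It was not called with either stimulus, and its fitted log2 change with hypoxia was 0.17 ± 0.67 (SE, adjusted p = 0.907, edgeR). Between single libraries, the IFN-γ change of Stat4 was 1.80 under normoxia and 1.27 under hypoxia. The filter favoured such a rise, so no interval is given and these values are no support for one. Of the 31-base words of Stat4, 29.4% are shared, mainly with the transcript Gm28177 on the same strand, so reads of both cannot be told apart there.

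Levels of the members were compared per length, as CPM per kilobase of exon (RPKM). Stat6, Stat2 and Jak1 were the highest, with mean levels of 42.2, 38.5 and 38.2 RPKM over the 4 libraries. Stat3 followed at 14.1, then Stat5a at 10.9, Stat5b at 9.52, Jak2 at 8.83, Tyk2 at 3.05 and Stat4 at 0.0924 RPKM. The median of 12381 tested genes with a known length was 8.71 RPKM, so Jak2 stood near the middle of the tested genes, with 50.3% of them below it, and Stat6 stood above 84.4%. Tyk2 stood above 29.3% of them and Stat4 above 2.04%. With coding length in place of exon length, Stat5a and Stat5b exchanged places in the order of the means.

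The order at the top depended on IFN-γ. In both controls Stat6 was the highest, at 38.0 RPKM under normoxia and 48.6 RPKM under hypoxia, followed by Jak1 and then Stat2. In both IFN-γ libraries Stat2 was the highest, at 50.9 RPKM under normoxia and 63.0 RPKM under hypoxia, followed by Stat6 and then Jak1. The ratio of Stat2 to Stat6 per length was 0.492 and 0.436 in the normoxic and hypoxic controls and 1.40 and 1.37 in the IFN-γ libraries. The counting intervals of these ratios do not overlap between controls and IFN-γ libraries. With coding length Stat2 and Stat6 kept this order in every library, while in the normoxic control Stat3, at 30.0, stood just above Stat2, at 29.7 CPM per coding kilobase. Neighbours in the order whose counting intervals overlapped were Stat3 and Stat5a in the normoxic control, Stat5b and Stat3 in the hypoxic control, Stat6 with Jak1 and Jak2 with Stat5b in the normoxic IFN-γ library, and Stat5a and Stat5b in the hypoxic IFN-γ library.

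The ratios of Stat2 to Stat3 and of Jak2 to Jak1 were also higher in the IFN-γ libraries. The ratio of Stat2 to Stat3 per length was 1.68 in the normoxic control, 2.23 in the hypoxic control, 2.98 with IFN-γ under normoxia and 3.37 with IFN-γ under hypoxia, so it was higher in both IFN-γ libraries. With coding length these ratios were 0.991, 1.31, 1.76 and 1.98 in the same order, so which of the pair is higher in the normoxic control depends on the length used. The ratio of Jak2 to Jak1, the kinases of the IFN-γ receptor, was 0.191 and 0.182 in the normoxic and hypoxic controls and 0.267 and 0.285 in the IFN-γ libraries. That of Jak1 to Tyk2 stayed between 12.3 and 12.7 in all 4 libraries. A ratio shows unequal change of its genes and not which of them changed.

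**Figure D3:**
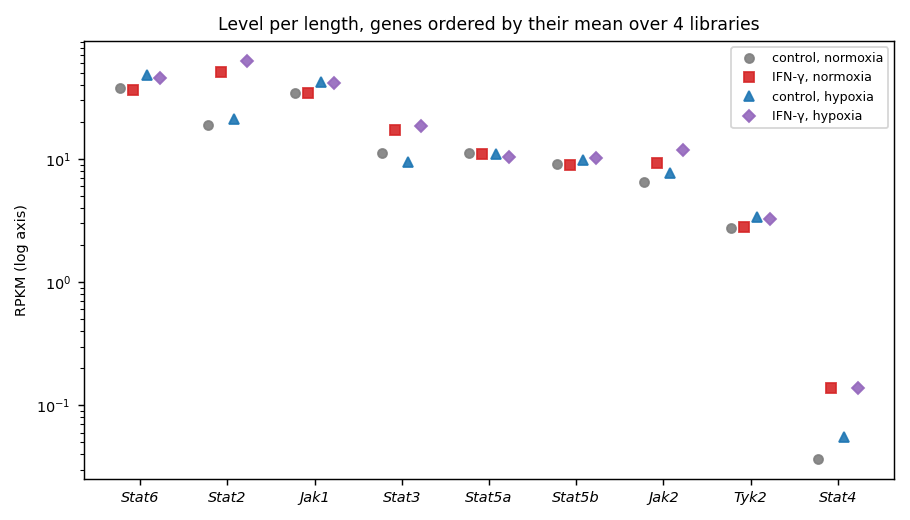
Level of each gene per exon length (RPKM, log axis) in the 4 libraries, with genes ordered by their mean and 1 point per library. Stat2 lies below Stat6 and Jak1 in both controls and above both in the IFN-γ libraries, and Stat4 lies between 0.0367 and 0.139 RPKM.

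Of 24 receptor genes whose products use JAK kinases, 18 could be tested. IFN-γ raised 4 and lowered 1, and hypoxia raised 2, with medians of 0.02 and 0.18 on the log2 scale. For this list and those that follow, the shares over all tested genes were 4.76% raised and 1.1% lowered with IFN-γ. With hypoxia they were 8.21% raised and 6.83% lowered. Il13ra1, a receptor chain for interleukin-13 that signals to STAT6, rose with both stimuli, by 1.33 with IFN-γ and 0.37 with hypoxia. Osmr, the oncostatin M receptor, rose by 0.85 with IFN-γ, Il12rb1, a chain of the interleukin-12 receptor, by 0.44, and Il6ra, the interleukin-6 receptor, by 0.38. Ifngr1, the ligand-binding chain of the IFN-γ receptor, was lowered with IFN-γ (log2 change -0.25, adjusted p = 0.0308, edgeR) and raised with hypoxia (0.24, adjusted p = 0.0167). Its counts were 1229 in the normoxic control, 1018 with IFN-γ under normoxia, 1441 in the hypoxic control and 1214 with IFN-γ under hypoxia. Ifngr2, the chain that carries Jak2, was not called, with log2 changes of -0.18 and -0.0050.

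Of 9 partners and coactivators of STAT proteins, IFN-γ raised 2 and hypoxia raised 1, with medians of 0.01 and 0.0066 on the log2 scale. Irf9, the DNA-binding partner of STAT2, rose by 0.82 with IFN-γ, from 1553 to 2644 counts under normoxia and from 1446 to 2582 counts under hypoxia. Nmi, a protein that binds several STATs, rose by 1.49 with IFN-γ. Stam, an adaptor that binds JAK kinases, rose by 0.30 with hypoxia.

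Of 19 inhibitors of the pathway, all tested, IFN-γ raised 3 and hypoxia none, with medians of -0.04 and -0.02 on the log2 scale. The raised genes were Socs1, which blocks JAK kinases directly, Socs3, which acts at receptors of the interleukin-6 family, and Usp18, which restrains the type I interferon receptor. Socs1 had 492 and 371 counts in the normoxic and hypoxic controls and 1220 and 1187 with IFN-γ, Socs3 rose by 0.94 on the log2 scale and Usp18 by 0.78. The phosphatase genes Ptpn1, Ptpn2 and Ptpn11 had log2 changes between -0.05 and 0.02 with IFN-γ and were not called. For Socs1 the hypoxia change was -0.19 (adjusted p = 0.151, edgeR).

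**Figure D4:**
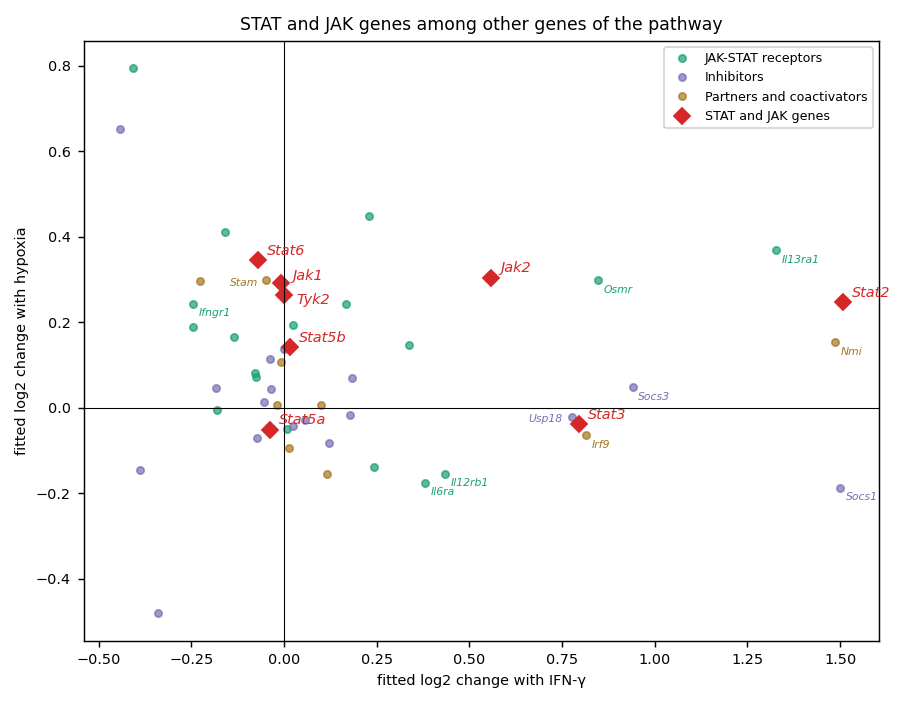
Fitted log2 change with IFN-γ (horizontal) and with hypoxia (vertical) for 8 of the 9 STAT and JAK genes as red diamonds and for tested receptors, inhibitors and partners as dots. Stat4 and Ptprc, with few counts, are left out, and dots with a name were called with at least 1 stimulus. Stat2 lies at 1.51 and 0.25, near Nmi at 1.49 and 0.15, and Stat3 at 0.79 and -0.04, near Irf9 at 0.82 and -0.06.

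Among 10 known STAT3 target genes, IFN-γ raised 2, Socs3 and the cyclin gene Ccnd1 (0.26), with a median log2 change of 0.05. Hypoxia raised Junb (0.24) and the kinase gene Pim1 (0.29) and lowered Ccnd1 (-0.20), also with a median of 0.05. Mcl1, an anti-apoptotic STAT3 target, was not called, with a log2 change of 0.01 with IFN-γ and -0.02 with hypoxia. Of 6 known STAT5 targets, 5 could be tested. Ccnd1 was raised with IFN-γ, Pim1 was raised and Ccnd1 lowered with hypoxia, and the medians were 0.01 and -0.14. Cish and Socs2, the targets read most often for STAT5, were not called with either stimulus. Their counts were low, at 20 to 29 for Cish and 51 to 91 for Socs2. The standard errors were wide, at 0.45 for Cish and 0.27 for Socs2 with each stimulus. A missing call therefore does not show that they were unchanged. The hypoxia median of -0.14 was the value of Cish itself. Both target lists share Ccnd1, Pim1 and Bcl2l1, and Socs3, Socs2 and Cish are also inhibitors.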

How the data were processed

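MC38 RNA was sequenced as 1 library in each of 4 conditions. Per the labels, poly-A RNA was selected and strand-specific libraries (dUTP method) were read from both ends over 100 bases on a DNBSEQ instrument, while the study's text speaks of total RNA. The authors aligned the reads with HISAT2 and deposited raw counts per gene for all 4 libraries. Their processing notes name featureCounts and mm10, the build called GRCm38 here. Versions, annotation, strand setting and the handling of multiply mapping reads are not given in the sources used here. Of 27179 identifiers, 25275 matched a symbol in a RefSeq table of GRCm38.p6.

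The counts were fitted as deposited with edgeR 4.0.16 (R 4.3.3): TMM, its filter for low counts (minimum 10), the quasi-likelihood test with additive terms for IFN-γ and oxygen, and Benjamini-Hochberg adjustment over 13580 genes at 0.05. The common dispersion was 0.00222 (coefficient of variation 4.71%). Standard errors are the log2 change divided by the root of F. Single-pair changes add 0.5 counts and carry Clopper-Pearson 95% intervals, and differences between them carry Poisson intervals. All these intervals and the floor of 3 counts cover counting error only. RPKM was computed from exon lengths of GENCODE M21. The fit was also run on simulated counts drawn at the common dispersion, with no interaction of IFN-γ and oxygen. That run therefore does not vouch for the calls in these data. DESeq2 1.42.0 (Wald test), 2 other scalings, 2 other filters, the fit without the other stimulus, a minimum log2 change of 0.5, single pairs, 5 added counts, summed Stat5 counts and coding lengths were alternatives.

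The members and lists were chosen with earlier results of these data known. The named genes are the 9 members, genes of the lists, and the 3 genes nearest in pattern to each called member. Other genes of both families are not reported here.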

Additional observations from a re-analysis of the deposited data

Results flagged for a closer look

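Stat3 moved in opposite directions with hypoxia in the absence and presence of IFN-γ. The hypoxic control lay below the normoxic control by a log2 change of -0.23, or 2048 against 2400 counts. The hypoxic IFN-γ library lay above the normoxic IFN-γ library by 0.13, or 3990 against 3644 counts. Each side is 1 library against 1, and the difference was not tested. Of the genes that reached 100 counts in all 4 libraries, 3.93% showed opposite changes whose counting intervals both excluded 0.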

How the results depend on the processing

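IFN-γ raised 3 members in the main analysis and 2 or 3 in every alternative, while the 4 members raised by hypoxia became 0 when IFN-γ was left out of the fit and 0 when a log2 change of at least 0.5 was also asked for. With coding length, 2 members changed place in the order by level. Some fitted changes near 0 turned sign, none of them a call. These were Jak1 with IFN-γ to 0.0031 without a filter, Tyk2 with IFN-γ to 0.0012 with DESeq2 size factors, 0.0092 without a filter, 0.0060 with at least 10 counts in every library and 0.0021 in DESeq2, and Stat3 with hypoxia to 0.0012 without the IFN-γ term. The summed Stat5a and Stat5b counts gave -0.0066 with IFN-γ, opposite in sign to Stat5b, and 0.055 with hypoxia, opposite in sign to Stat5a. For these turns the cause was not tested. In the single pairs of libraries, Stat5b, Jak1 and Tyk2 with IFN-γ under normoxia and Stat3 with hypoxia in the IFN-γ libraries also had the other sign, at -0.02, 0.02, 0.05 and 0.13. Of 70 alternative values for changes called in the main analysis, none turned sign and 6 lost the call. Of 112 for changes not called, 16 turned sign and none became a call. Both totals include the single-pair values, which carry no test and so could neither lose nor gain a call. The 6 lost calls all came from refits. DESeq2 gave no adjusted p for Stat4 with hypoxia. The main limits are the lack of replicates, which leaves culture-to-culture variation unmeasured, and the uncertain split of reads between Stat5a and Stat5b.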

Other observations

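The genes whose pattern over the 4 libraries lay nearest to each called member were found among 10443 tested genes that reached 100 counts in all 4 libraries, by Euclidean distance of centred log2 levels. For Stat2 these were 4933412E12Rik (0.0897), Parp10 (0.0981) and Oasl2 (0.105). Oasl2, an interferon-inducible gene, had 4171 and 4640 counts in the normoxic and hypoxic controls and 11137 and 12670 with IFN-γ. For Stat3 they were Irf2 (0.0886), Ly6e (0.102) and Asap3 (0.105). Irf2, an interferon regulatory factor gene, had 1250 and 1118 counts in the controls and 1872 and 2205 with IFN-γ, so its lowest library was also the hypoxic control. For Jak2 they were Ripk2 (0.0477), Naip6 (0.0633) and Nfkbiz (0.0775), of which the first is a kinase gene of innate sensing with 765 and 912 counts in the controls and 1099 and 1347 with IFN-γ. For Jak1 they were Polr2d (0.0116), Oga (0.0130) and Gpc6 (0.0138), and for Stat6 Ccdc138 (0.0044), Acss2 (0.0365) and Alg11 (0.0383). With 4 points per gene, such a distance describes these libraries only.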
